A study of Mus musculus with 8 samples.

Results

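The 6 genes described here, all of the autophagy and lysosome system, were followed in livers of mice on the MCD diet, out of 55416 rows in the deposited count table: C9orf72, Trp53inp1, Rragd, Stx17, Tmem106b and Laptm4b. They were chosen by symbol and by position. On most of the nuclear genome the names of this table's rows do not match their counts, and all 6 lie in 3 stretches where they match, on chromosomes 4, 6 and 15 of the GRCm38 assembly. These stretches were chosen from the mean counts of the rows, so it is a condition of the choice, and not a result, that the members can be read by name. The 3 stretches hold 1439 rows, 565 of them protein coding, and 461 of the rows had enough counts to be tested.

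Poly-A RNA of 8 livers was sequenced, 4 of Sost-/- and 4 of SostPB/- mice, numbered as biological replicates in each genotype. Sost is the gene of sclerostin, a protein secreted by bone cells that inhibits Wnt signals, and its own row lies outside the stretches and was not analysed here. All 8 mice were on the MCD diet, which in its usual sense lacks methionine and choline and is used to bring on steatohepatitis. Both genotypes are written with a minus allele, PB is not spelled out, and neither age nor sex is given. The series asks how Sost overexpression affects steatohepatitis without saying which group overexpresses it, so the groups are compared by name.

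Autophagy is the route by which a cell encloses its own material in a double membrane, the autophagosome, and delivers it to the lysosome for breakdown. The lysosome is also the place where amino acid supply is sensed: Rag GTPases on its membrane recruit the kinase complex mTORC1, which holds autophagy back while nutrients are at hand. In the liver, autophagy supplies amino acids and lipid during fasting and removes damaged organelles. C9orf72 works in a complex with SMCR8 and WDR41 that acts on small GTPases in membrane traffic and at the lysosome, and in people an expanded repeat in its first intron causes amyotrophic lateral sclerosis and frontotemporal dementia. Trp53inp1 is a stress protein induced by p53 that binds the LC3 family on autophagosomes. Rragd is one of the Rag GTPases, Stx17 is the SNARE protein that lets a closed autophagosome fuse with the lysosome, and Tmem106b and Laptm4b are lysosomal membrane proteins.

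Promoter windows of 250 bases before to 50 bases after the start were found for 4 of the 6 members in the RefSeq table for GRCm38.p6. A pair of them from chromosome 4 is shown because C9orf72 had the largest difference between the genotypes among the members and Stx17 one of the smallest. Capitals mark GGGCGG on either strand, the GC box that Sp1-type factors bind. This motif was chosen after the sequences were seen. The window of C9orf72 is chr4:35225787-35226086 on the minus strand and that of Stx17 is chr4:48124669-48124968 on the plus strand, both written 5′ to 3′. The C9orf72 window follows a RefSeq start. It lies wholly inside the gene as GENCODE places it, with a 5′ end at 35226175.
C9orf72: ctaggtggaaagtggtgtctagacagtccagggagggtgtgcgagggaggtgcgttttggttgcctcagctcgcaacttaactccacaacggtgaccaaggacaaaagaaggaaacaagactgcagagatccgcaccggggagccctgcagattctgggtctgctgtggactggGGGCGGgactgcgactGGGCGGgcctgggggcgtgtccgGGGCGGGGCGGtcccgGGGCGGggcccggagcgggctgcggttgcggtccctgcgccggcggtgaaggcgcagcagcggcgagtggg
Stx17: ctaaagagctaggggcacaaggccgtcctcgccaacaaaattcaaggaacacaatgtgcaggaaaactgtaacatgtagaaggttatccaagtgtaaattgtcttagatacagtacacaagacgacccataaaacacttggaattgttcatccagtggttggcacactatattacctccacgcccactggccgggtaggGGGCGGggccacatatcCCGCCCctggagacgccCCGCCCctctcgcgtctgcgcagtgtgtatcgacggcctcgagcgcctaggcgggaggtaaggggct
The C9orf72 window held 5 GC boxes, of which 2 overlap, and 67.7% G and C, above 86.8% of the 32851 windows in the table. The Stx17 window held 3 and 54.7% G and C, while the windows of Rragd and Tmem106b held 0. Of all windows, 35.7% held at least 1 GC box, 10.7% at least 3 and 2.71% at least 5. The letters CACGTG, the core of the CLEAR element that TFEB binds in lysosomal genes, were searched on both strands and occurred in none of the 4 windows, against 7.15% of all windows. The same letters with a leading T, TCACGTG, occur in 3.77% of all windows and in none of these 4.

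The libraries held 9578086 to 14932773 counts. Mitochondrially encoded rows took 47.4% to 59.2% of the counts in Sost-/- and 54.7% to 64.3% in SostPB/-. The number of rows above 0 did not overlap, with 15436 to 16629 in Sost-/- and 14459 to 14762 in SostPB/-. The hepatocyte markers Pon1, Cyp7a1, Baat and Agxt2 lie in the stretches and were read there. Mean counts chose the stretches, so the levels of these markers are no independent check of tissue or row names. Pon1 had 1746.2 ± 207.1 CPM (a row's counts relative to the total of its library, scaled by TMM) over the 4 Sost-/- livers (mean and SD), against 1895.4 ± 278.0 CPM over the 4 SostPB/- livers. Cyp7a1, which opens the main route from cholesterol to bile acids, was at 606.0 ± 267.6 and 673.8 ± 378.4 CPM. The groups of all 4 overlapped, and none of the 4 passed the test. For 5 other cell types 1 marker each could be read, and all 5 had overlapping groups and did not pass the test. Log2 fold changes of SostPB/- over Sost-/- were -0.25 (SE 0.21) for Tfec (macrophages) and 0.23 (SE 0.23) for Col1a2 (stellate cells). Cav1 (endothelial cells) was at 0.14 (SE 0.23) and Il7r (T cells) at -0.38 (SE 0.21). Pax5 (B cells), with a mean of only 16.5 counts, was at 0.26 (SE 0.65). None of the 10020 tested rows passed, so these results cannot show whether the cell make-up was alike.

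None of the 6 members passed edgeR's quasi-likelihood test of SostPB/- over Sost-/- at a Benjamini-Hochberg adjusted p of 0.05 over all 10020 tested rows. The background is the same, 0 of 10020 rows (0%) and 0 of the 461 readable rows. At an unadjusted p under 0.05 stood 2 of the 6 members, C9orf72 and Trp53inp1, against 38 of 461 readable rows (8.24%) and 646 of all rows (6.45%). DESeq2 called 1 member, C9orf72, where it called 4 of 519 readable rows (0.771%) and 53 of 12666 rows in all (0.418%). Limma-voom with sample weights called 0 members and 1 of 10020 rows (0.00998%). The lower levels of C9orf72 and Trp53inp1 in SostPB/- were known from an earlier analysis of the same data when the members were chosen. The log2 fold changes of the members ran from -1.11 to 0.19 with a median of -0.12, beside a median of -0.01 over the readable rows and over all rows. In whole liver, fewer cells of a type and less RNA per cell cannot be told apart.

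**Figure D1:**
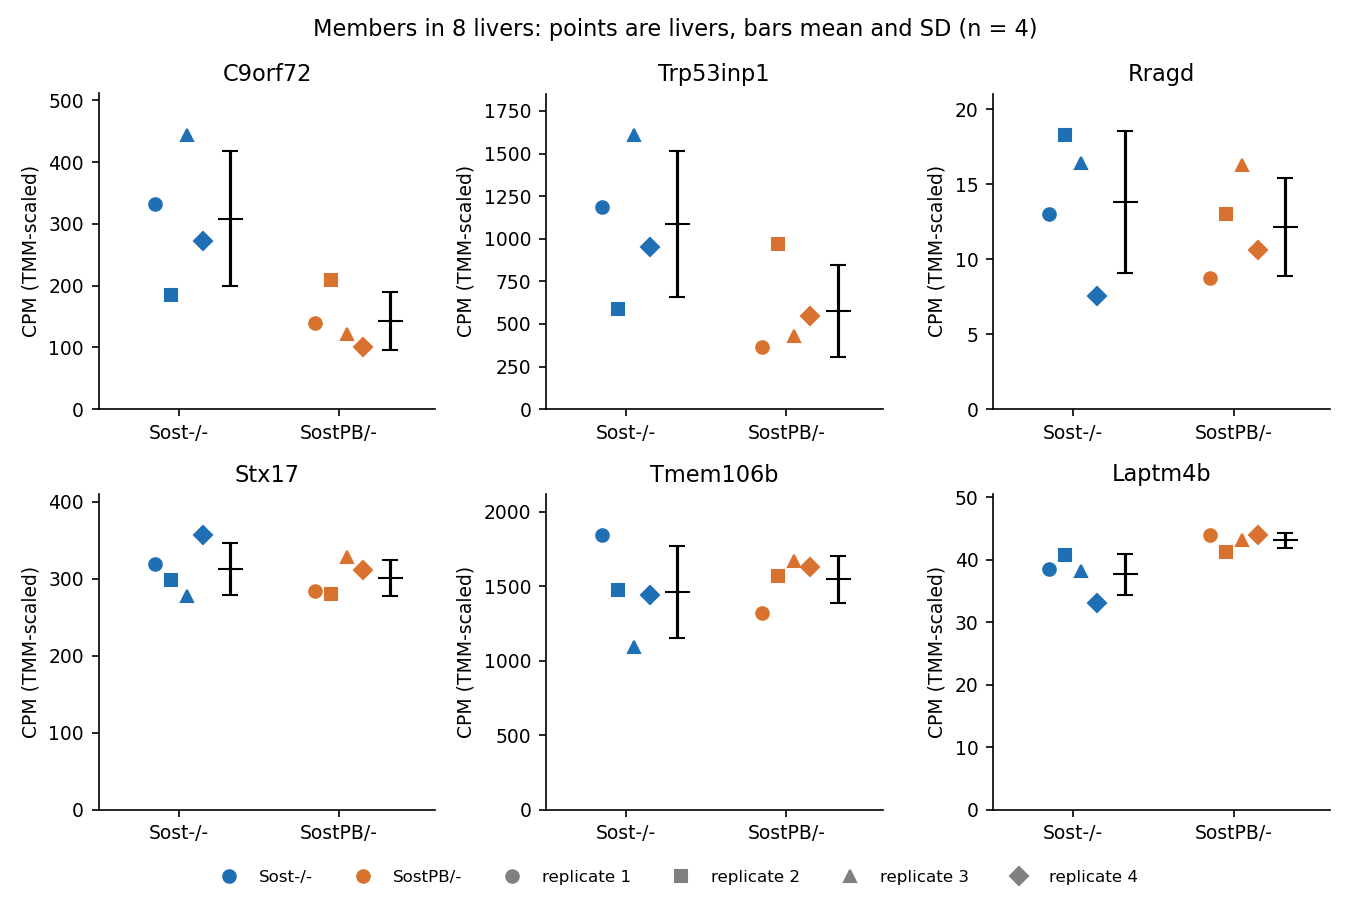
Level of each member in the 8 livers. The vertical axis is CPM scaled by TMM, starting at 0, points are livers marked by genotype and replicate number, and bars are the mean and SD of 4 livers. C9orf72 and Trp53inp1 spread widely in both genotypes, Stx17 and Laptm4b narrowly, and only the groups of Laptm4b do not overlap.

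C9orf72 was the member with the largest difference (ENSMUSG00000028300.15, chromosome 4, 35191285 to 35226175, minus strand). In Sost-/- replicates 1 to 4 it had 332.4, 185.1, 444.4 and 272.8 CPM. SostPB/- replicates 1 to 4 had 139.7, 208.8, 121.9 and 100 CPM. Sost-/- replicate 3 was the highest and the groups met in a single place, where SostPB/- replicate 2 lay above Sost-/- replicate 2. The means were 308.7 ± 108.9 and 142.6 ± 47 CPM (SD, n = 4). The level in SostPB/- was 0.462 of that in Sost-/-, or -1.11 as a log2 fold change (SE 0.29). edgeR's adjusted p was 0.544 and that of DESeq2 was 0.0316, the lowest over the alternatives, which reached 0.996. These values rest on 997 to 5249 counts per library.

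The number of rows above 0, which separated the genotypes, had a Pearson r of 0.86 with log2 C9orf72 over the 8 livers and of 0.72 with Trp53inp1. The mitochondrial share had an r of -0.55 with C9orf72 and -0.40 with Trp53inp1. The part of these measures in the differences was not tested. With mitochondrial rows left out of the fit, the log2 fold change of C9orf72 was again -1.11. Both fits were scaled by TMM, and leaving these rows out moved log2 fold changes by a median of only 0.01. This alternative therefore cannot show what part the mitochondrial share has.

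A pair of other rows overlaps the C9orf72 gene. Gm12366, a processed pseudogene on the same strand within an intron (35202103 to 35202975), had 43.9 to 50.9 CPM over the 8 livers and a log2 fold change of -0.01 (SE 0.14, edgeR adjusted p = 0.998). Its r with C9orf72 was -0.22, so this row did not vary with the gene around it. Gm12367 runs on the opposite strand from 35225897, and its exons overlap those of C9orf72 at the 5′ end. Sost-/- replicates 1 to 4 had 7, 1, 14 and 2 counts of it, and all 4 SostPB/- libraries had 0, which allows up to 3 counts in each. It was too low to be tested. No source used here gives the strand setting of the counting, and reads of the 2 genes cannot be separated where exons overlap.

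Trp53inp1 (ENSMUSG00000028211.12, chromosome 4, 11156431 to 11174379) had the next largest difference. Its level was 1188.8, 586.6, 1610.6 and 953.6 CPM in Sost-/- replicates 1 to 4. SostPB/- replicates 1 to 4 held 366.3, 967.2, 430.2 and 545.6 CPM. The order of the Sost-/- livers was the same as for C9orf72, with replicate 3 highest and replicate 2 lowest, and SostPB/- replicate 2 again lay among them. The means were 1084.9 ± 429.2 and 577.3 ± 270.3 CPM (SD, n = 4), at a log2 fold change of -0.91 (SE 0.35, edgeR adjusted p = 0.719). Over the alternatives the adjusted p ran from 0.330 to 0.999.

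Rragd (ENSMUSG00000028278.15, chromosome 4, 32983037 to 33022180) was the least abundant member, with 86 to 211 counts per library. Sost-/- replicates 1 to 4 had 13, 18.3, 16.4 and 7.57 CPM. The SostPB/- livers, in the same order, had 8.75, 13, 16.3 and 10.6 CPM. The lowest and the highest liver were both Sost-/-. At -0.19 (SE 0.30), its log2 fold change had an adjusted p of 0.981 by edgeR.

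Stx17 (ENSMUSG00000061455.14, chromosome 4, 48124915 to 48186507) hardly varied between mice. Sost-/- replicates 1 to 4 had 319.3, 298.2, 276.9 and 356.3 CPM, and SostPB/- replicates 1 to 4 had 283.8, 279.5, 328.4 and 311.4 CPM. The groups lay within each other, at means of 312.7 ± 33.9 and 300.8 ± 23.2 CPM (SD, n = 4). At a log2 fold change of -0.06 (SE 0.14), the adjusted p from edgeR was 0.985. Without Sost-/- replicate 4 the value was 0.02.

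Tmem106b (ENSMUSG00000029571.15, chromosome 6, 13069759 to 13089269), which sits in the lysosomal membrane and is a risk gene for frontotemporal dementia, was the most abundant member. Sost-/- replicates 1 to 4 had 1842.3, 1473.8, 1088.8 and 1442.6 CPM. The SostPB/- livers, in the same order, had 1319.8, 1567.6, 1668.9 and 1630.6 CPM. The highest and the lowest of the 8 livers were both Sost-/-, so the spread within that genotype enclosed the other group. SostPB/- stood at a log2 fold change of 0.08 (SE 0.17, edgeR adjusted p = 0.981), which was -0.10 with library totals alone as the scaling and -0.03 without Sost-/- replicate 3.

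Laptm4b (ENSMUSG00000022257.5, chromosome 15, 34238028 to 34284302) was the member whose groups did not overlap. Sost-/- replicates 1 to 4 had 38.5, 40.8, 38.2 and 33.1 CPM. SostPB/- replicates 1 to 4 had 43.9, 41.2, 43.2 and 43.9 CPM. On this TMM-scaled measure all 4 SostPB/- livers were above all 4 Sost-/- livers, as in 9 of 461 readable rows (1.95%). The gap was narrow, from 40.8 CPM in Sost-/- replicate 2 to 41.2 CPM in SostPB/- replicate 2. In either direction the groups of 19 readable rows (4.12%) and of 393 of all rows (3.92%) did not overlap. The distance is small, with means of 37.6 ± 3.22 and 43 ± 1.26 CPM (SD, n = 4) and a log2 fold change of 0.19 (SE 0.14, edgeR adjusted p = 0.945). With library totals alone, which lower the log2 fold changes of all rows by a median of 0.19, that of Laptm4b was 0.00. Its groups overlapped on that scale. Sost-/- replicate 2 had 469 Laptm4b counts out of 10554376, and SostPB/- replicate 3 had 371 out of 10412498. Its r with the mitochondrial share was 0.68, that of Tmem106b was 0.70, and the part of that share was not tested.

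Set per kb of exon, counting the bases of all annotated exons of a gene, the order of the members was Tmem106b, Trp53inp1, Stx17, C9orf72, Laptm4b and Rragd. Tmem106b had 217 ± 33.3 CPM per kb over the 8 livers (SD, n = 8) and Trp53inp1 had 128.4 ± 66.2, with ranges that overlapped. Stx17, at 51.7 ± 4.66, and C9orf72, at 49 ± 25.6, had overlapping ranges over the 8 livers, and their order varied between livers. In Sost-/- C9orf72 had 67.1 ± 23.6 CPM per kb and Stx17 52.7 ± 5.71 (SD, n = 4), and C9orf72 was the higher of the 2 in 2 of 4 livers. In SostPB/- C9orf72, at 21.7 to 45.4 CPM per kb, lay below Stx17, at 47.1 to 55.3, in each of the 4 livers. Laptm4b followed at 20.8 ± 1.89, and Rragd stood far below at 2.51 ± 0.745 CPM per kb, lower in each of the 8 livers. Tmem106b was above 95% of the tested readable rows on this scale and Rragd above 22.8%.

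The members differed in how much they varied between livers. Over all 8 livers, which includes the distance between the genotypes, the coefficient of variation was 52.3% for C9orf72, 51.6% for Trp53inp1, 29.7% for Rragd, 15.3% for Tmem106b, 9.09% for Laptm4b and 9.01% for Stx17. The median over 326 readable protein-coding genes with a mean of at least 50 counts was 18.5%. Only 12 of these genes varied more than C9orf72, and 312 of them varied more than Stx17. Within Sost-/- the coefficient of variation of C9orf72 was 35.3%, with 33 of the 326 genes above it, and within SostPB/- it was 33%, with 47 above it. That of Trp53inp1 was 39.6% and 46.8%, with 22 genes above it in both genotypes. Stx17 (10.8% and 7.72%) and Laptm4b (8.56% and 2.92%) were below the median gene within each genotype too, at 17.8% and 16.5%. Laptm4b had only 371 to 557 counts per SostPB/- library, so counting noise limits what its 2.92% over 4 livers can show.

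C9orf72 and Trp53inp1 varied together. Over the 8 livers, log2(CPM + 1) of the pair had a Pearson r of 0.91 and a Spearman rho of 0.88, and r was 0.84 after each genotype's mean was subtracted. Without the 2 livers farthest from the median of C9orf72, r was 0.93 over the other 6. These are descriptions without a test, of genes chosen with their values known, and the 8 values share their library's scaling. The 4 Sost-/- livers held 3.58, 3.17, 3.62 and 3.5 Trp53inp1 counts per C9orf72 count, a nearly fixed ratio, while the SostPB/- livers held 2.62, 4.63, 3.53 and 5.45. Among 325 genes ranked by r with C9orf72, Trp53inp1 came at place 3, and C9orf72 came at place 2 for Trp53inp1.

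**Figure D2:**
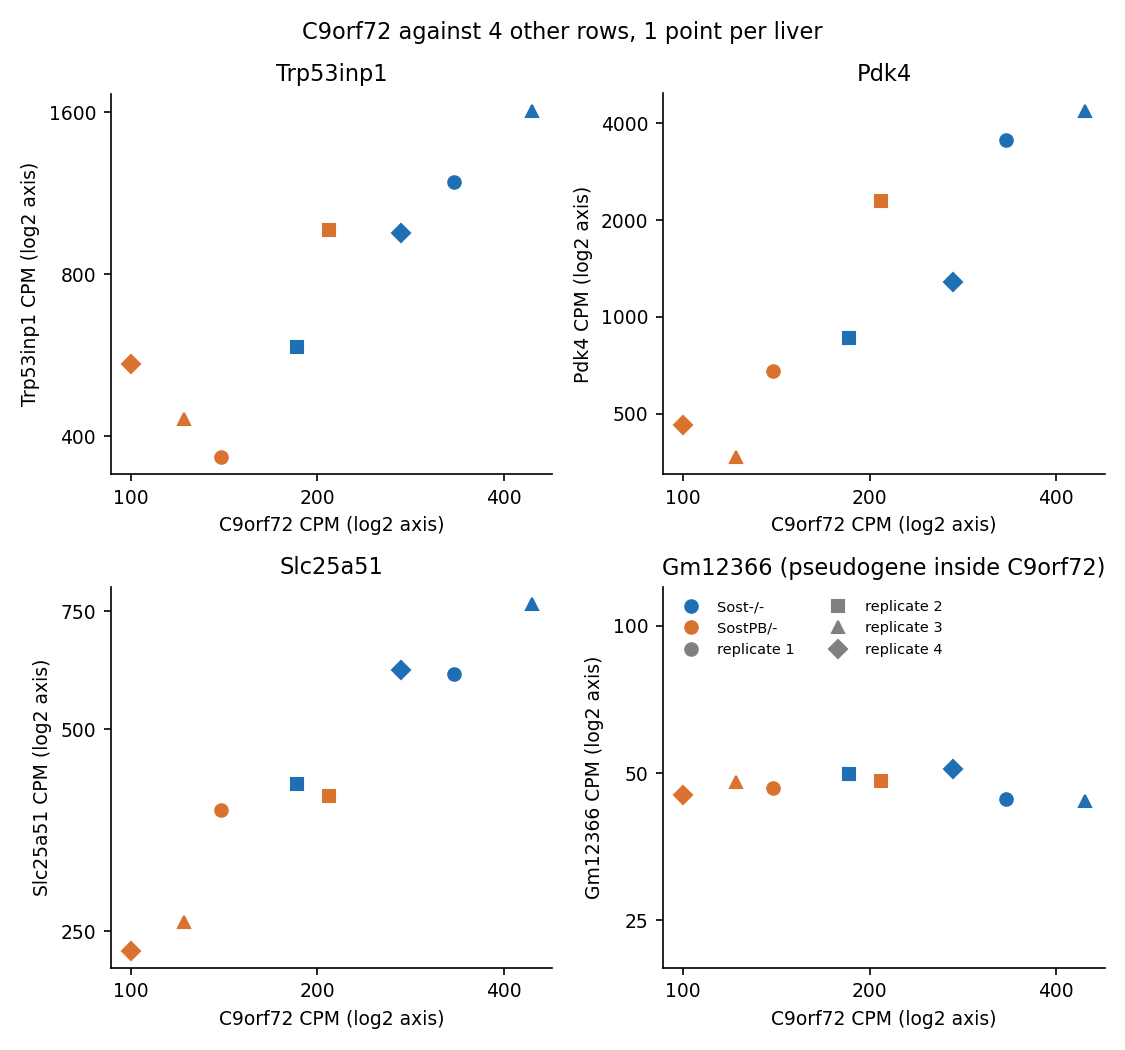
C9orf72 against Trp53inp1, Pdk4, Slc25a51 and the intronic pseudogene Gm12366, 1 point per liver, with both axes in CPM on a log2 scale. Trp53inp1, Pdk4 and Slc25a51 follow C9orf72 across both genotypes (r of 0.91, 0.93 and 0.97), and Gm12366 stays between 43.9 and 50.9 CPM.

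Outside the members, the readable genes most like C9orf72 were Slc25a51 (r = 0.97), Pdk4 (r = 0.93) and Tex10 (r = 0.82), over the 8 livers and among 320 genes. Picking the highest of so many gives high values by itself, and none was tested. Slc25a51 carries NAD into mitochondria, Pdk4 is the fasting-induced kinase that holds back pyruvate oxidation, and Tex10 takes part in ribosome assembly. Pdk4 had 3538.4, 862.9, 4376.1 and 1280.6 CPM in Sost-/- replicates 1 to 4 and 679.9, 2300.1, 366.7 and 461.6 CPM in SostPB/-. Sost-/- replicates 1 and 3 and SostPB/- replicate 2 were thus the 3 highest livers for Pdk4. They were also the highest of their own groups for C9orf72 and Trp53inp1. With the genotype means subtracted, r with C9orf72 was 0.93 for Pdk4, 0.92 for Slc25a51 and 0.69 for Tex10. For Trp53inp1 the nearest were Pdk4 (r = 0.92), Mdn1, a ribosome assembly ATPase (r = 0.82), and Slc25a51 (r = 0.81).

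The other 4 members did not follow this pattern. Their r with C9orf72 was 0.14 for Rragd, -0.10 for Stx17, -0.39 for Tmem106b and -0.73 for Laptm4b. The value for Laptm4b was -0.32 within genotypes and -0.01 with library totals alone as the scaling. Likewise, Trp53inp1 and Laptm4b had an r of -0.67, which was -0.35 within genotypes and -0.09 with library totals alone. Between the lysosomal membrane proteins Tmem106b and Laptm4b r was 0.19, and between Stx17 and Tmem106b it was 0.50.

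**Figure D3:**
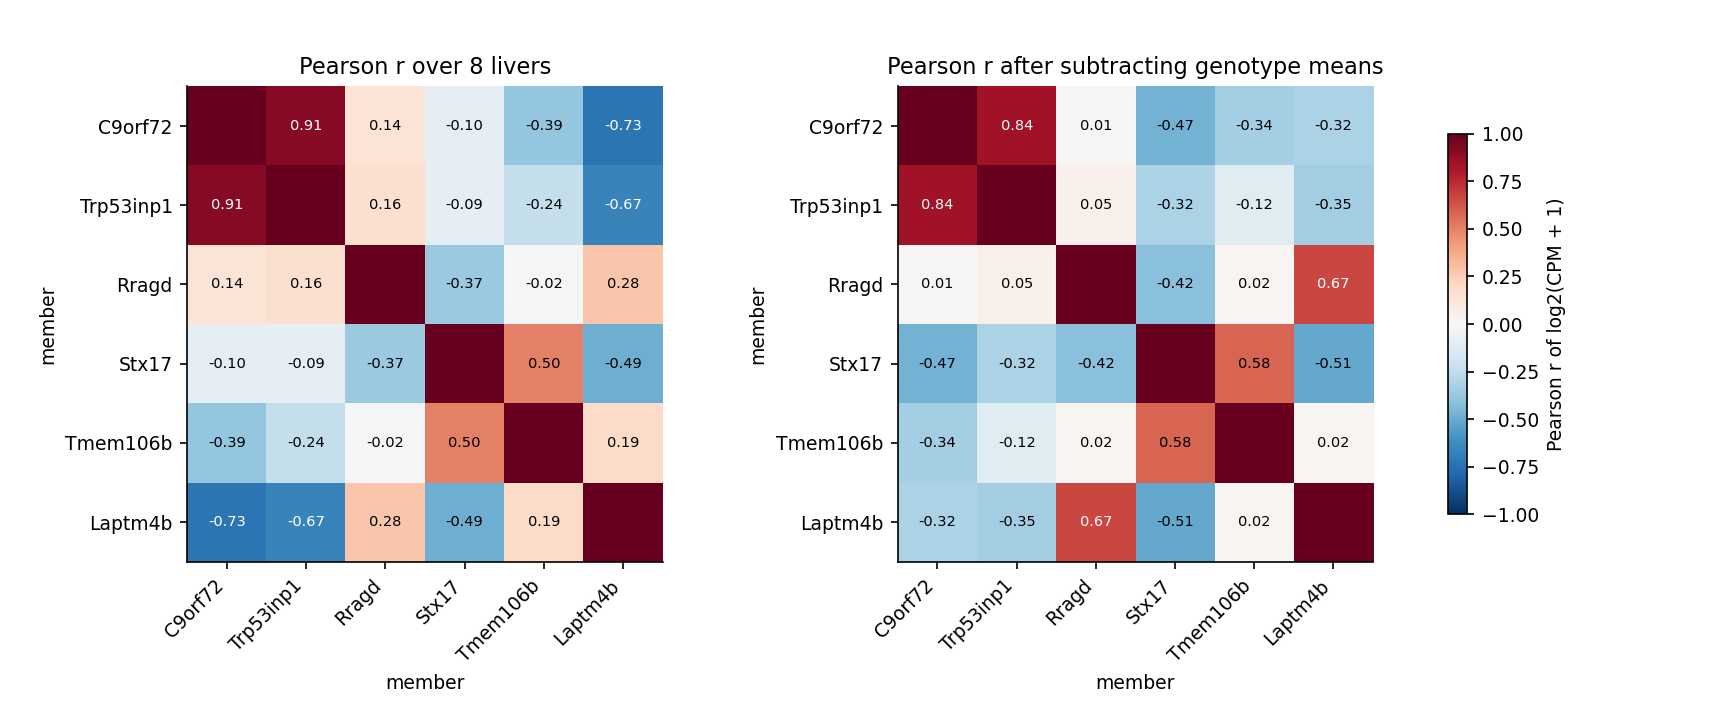
Pearson r between the members, computed on log2(CPM + 1) over the 8 livers (left) and after each genotype's mean was subtracted (right), on a colour scale from -1 to 1. C9orf72 and Trp53inp1 stand out at 0.91 and 0.84, and the negative values of both with Laptm4b (-0.73 and -0.67) are -0.32 and -0.35 within genotypes and -0.01 and -0.09 with library totals alone, which the plot does not show.

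The nearest genes of the other members were of different kinds. Each was picked as 1 of the 3 highest r among 320 genes over only 8 livers. Such a choice gives high values by itself, and none of them was tested. Tmem106b was most like the ubiquitin ligase gene Wwp1, the paraoxonase gene Pon3 and Cped1, each with r = 0.96. Stx17 was most like Ecpas, a proteasome adaptor (r = 0.89), the splicing factor gene Smu1 (r = 0.88) and Fbxl4, a mitochondrial protein that restrains mitophagy (r = 0.87). Rragd was nearest to the TGF-beta receptor gene Tgfbr1 (r = 0.81), the protease gene Adamts12 (r = 0.80) and Pdp1, the phosphatase that reverses the action of Pdk kinases (r = 0.73). Laptm4b was nearest to Pip4p2, a phosphoinositide phosphatase of late endosomes and lysosomes (r = 0.86), to the myosin gene Myo10 (r = 0.84) and to Klhdc10 (r = 0.82). With library totals alone as the scaling these values were 0.41, 0.63 and 0.45, and that of Klhdc10 was 0.26 without Sost-/- replicate 4. The r of Tmem106b with Wwp1 was 0.78 with library totals alone.

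Tmem106b moved with a property of the libraries. Genes were classed by exon length, the bases covered by all annotated exons of a gene, which can exceed the length of its transcripts. Long genes had 5000 bases of exon or more and short ones 2000 or fewer. The median deviation of long minus that of short genes was 0.10, 0.03, -0.24 and -0.03 (log2) for Sost-/- replicates 1 to 4. For SostPB/- it was -0.19, 0.06, 0.29 and 0.05. Its r with Tmem106b, a gene with 6931 bases of exon, was 0.86, and Sost-/- replicate 3 and SostPB/- replicate 1 were the 2 lowest on both. Tmem106b is itself in the long class that enters the measure, so the measure is not independent of this gene. Across other genes, the median r with Tmem106b was 0.27 for 148 long genes and -0.25 for 45 short ones. The relation was loose, with a Spearman rho of 0.24 between r and exon length over 325 genes. Atp6v1f, a subunit of the proton pump that acidifies the lysosome, has 1063 bases of exon. Its r with Tmem106b was -0.94, lower than all but 1 of the 325 genes. The part of transcript length or RNA quality in the level of Tmem106b was not tested. Stx17, also a long gene by this class, had an r of 0.51 with the same measure and a median r of 0.27 with long genes and -0.08 with short ones. Rragd and Trp53inp1 are long genes too (5173 and 6475 bases of exon), and their r with the measure was 0.28 and -0.29. It was 0.22 for Laptm4b, a short gene with 1938 bases. C9orf72, with 4603 bases and in neither class, had an r of -0.43.

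**Figure D4:**
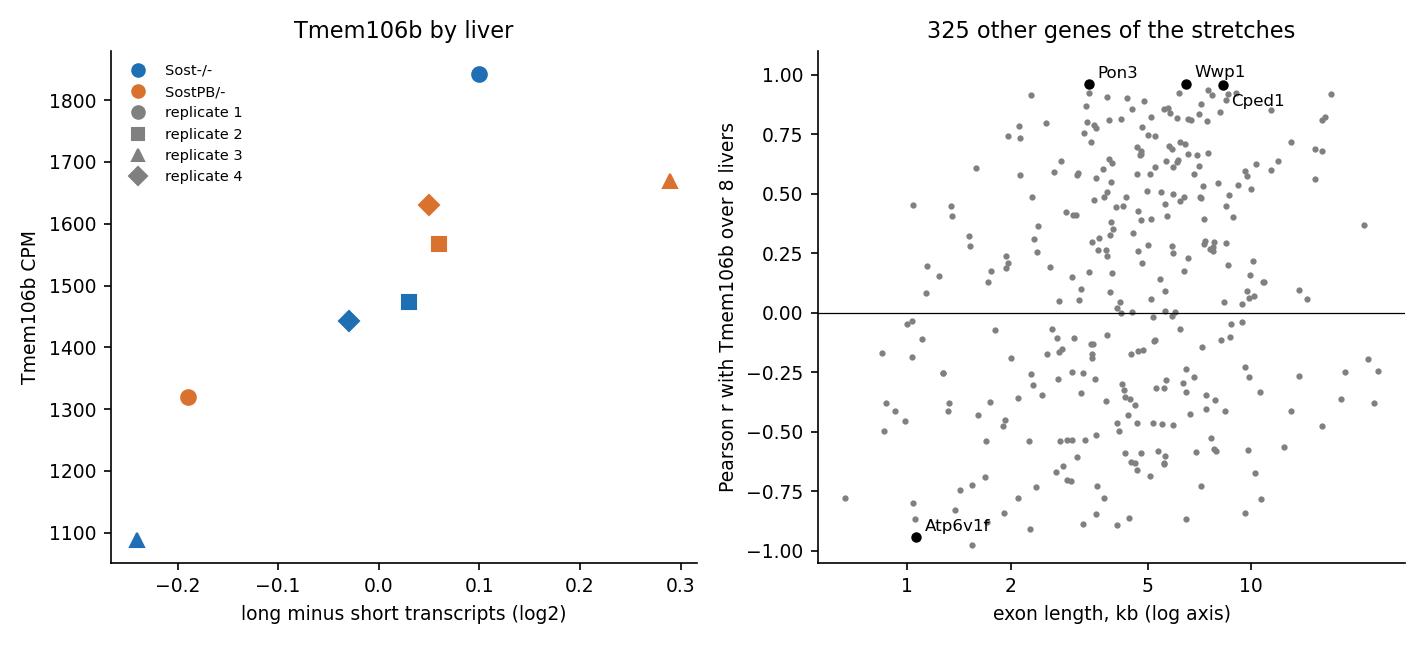
Left, CPM of Tmem106b against the long-minus-short measure of each library (log2), 1 point per liver; the vertical axis does not start at 0. Right, Pearson r of 325 readable genes with Tmem106b over the 8 livers against exon length in kb on a log axis, with Wwp1, Pon3 and Cped1 near the top and Atp6v1f at the lower left.

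The wider pathway could be read only in part. Of 161 genes in 8 lists of autophagy, lysosome and endosome genes, 16 lie in the 3 stretches, the 6 members and 10 others. All 10 were tested, 0 passed edgeR's test in either direction, 1 had an unadjusted p under 0.05 and neither DESeq2 nor limma-voom called any. Their log2 fold changes ran from -0.46 to 0.12 with a median of -0.02, where the readable rows had -0.01.

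Among the genes that build autophagosomes or bring cargo to them, Retreg1, Dap and Vcp stood beside Trp53inp1. Retreg1, the receptor that sends endoplasmic reticulum to autophagy, had 501.8, 439.3, 407.7 and 521.9 CPM in Sost-/- replicates 1 to 4 and 348.5, 319.0, 362.4 and 330.7 CPM in SostPB/-. All 4 SostPB/- livers lay below all 4 Sost-/- livers, as in 10 of 461 readable rows (2.17%), at a log2 fold change of -0.46 (SE 0.14, edgeR adjusted p = 0.652). Dap, a suppressor of autophagy, was at -0.20 (SE 0.25). Vcp, the ATPase that extracts ubiquitinated proteins, was at -0.02 (SE 0.17).

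None of the fusion and lysosome genes passed the test either. Rab2a, a GTPase in fusion with the lysosome beside Stx17, was at 0.12 (SE 0.16). The peptidase gene Cpq was at 0.12 (SE 0.15). Both were at -0.08 with library totals alone, so their direction depends on the scaling. Atp6v1f, of the proton pump, was at -0.25 (SE 0.22), with 74.9 to 140.0 CPM in Sost-/- and 66.7 to 112.1 CPM in SostPB/-. Tfec, of the TFEB family of transcription factors, was at -0.25 (SE 0.21).

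The endosome sorting genes Ubap1, Chmp5 and Snx30 had log2 fold changes of -0.02 (SE 0.13), 0.05 (SE 0.15) and 0.10 (SE 0.17). Ubap1 belongs to the ESCRT-I complex and Chmp5 to ESCRT-III, which bud vesicles into endosomes and seal membranes. The readable Rag pathway came down to Rragd, and of the C9orf72 complex the partners Smcr8 and Wdr41 lie outside the stretches and were not analysed here.

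**Figure D5:**
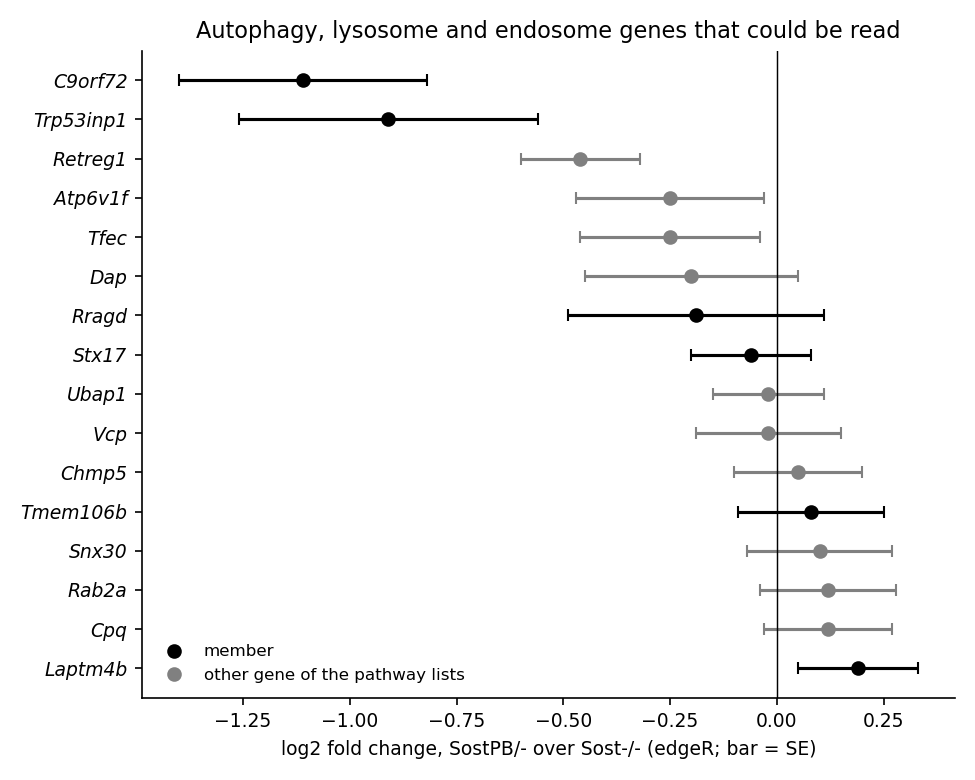
Log2 fold change of SostPB/- over Sost-/- (edgeR, bars are the SE) for the 6 members in black and the 10 other readable genes of the pathway lists in grey. C9orf72 at -1.11 and Trp53inp1 at -0.91 lie farthest to the left, Retreg1 follows at -0.46, and the other 13 lie between -0.25 and 0.19.

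How firmly the names hold differs by member. Genes of families that all cells use served as anchors: 13 of 14 in the stretches (92.9%) reached a mean of 100 counts, against 65 of 470 (13.8%) on the rest of the nuclear genome. Such counts chose the stretches, so they are no test of them. Laptm4b has the anchor Rpl30 at 0.156 Mb, Trp53inp1 has Ndufaf6 at 0.0802 Mb, Tmem106b has Ndufa4 at 1.16 Mb and Stx17 has Mrpl50 at 1.33 Mb. For Rragd and C9orf72 the nearest anchors, Ndufb6 in both cases, lie 7.25 and 5.04 Mb away, so their names are the least closely anchored.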

How the data were processed

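Libraries were made from captured poly-A RNA of liver, per the labels' protocols. HISAT2, StringTie, DESeq2 and the build mm10 are named without version or role in the submitters' processing notes. Annotation release and strand setting were not given in the sources. The authors deposited whole-number counts per gene row for 8 libraries, and these counts were used as they stand. Their second table, of normalized values, was not used here.

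Groups and replicate numbers came from the sample titles. Rows were placed by Ensembl ID in GENCODE M21 (GRCm38), and a row was taken as readable when it lay in the 3 stretches, with bounds rounded to 0.1 Mb. Counts were tested over all rows with edgeR 4.0.16 in R 4.3.3 (filterByExpr, TMM, glmQLFit, glmQLFTest for SostPB/- over Sost-/-, Benjamini-Hochberg adjustment at 0.05). The standard error is the size of the log2 fold change over the square root of F. Alternatives were DESeq2 1.42.0, limma-voom 3.58.1 with sample weights, RLE and total scaling, nuclear rows only, a pair of other filters, a block for the replicate number, and fits without each library in turn. The likeness of genes is Pearson r of log2(CPM + 1).

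The members, the gene lists and the markers were chosen with earlier results of these data known. Named genes are the members, the tested list genes in the stretches and, for each member, the 3 genes with the highest r among protein-coding readable genes whose mean count was 50 or more, predicted genes excepted. The C9orf72 overlap rows, the long-minus-short measure and the GC box were added after the data were seen, as were the alternatives for r. The fit was tested on simulated data. 1 of the markers examined is not reported here.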

Additional observations from a re-analysis of the deposited data

Results flagged for a closer look

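Each library was compared with the other 3 of its genotype, by the gap to the nearest over the range of the 4. In 90 such sets of 4 values 7 stood out, where chance gives about 1 in 20. By total counts, Sost-/- replicate 1 with 14932773 (others 9919069 to 10554376) and SostPB/- replicate 2 with 14613316 (others 9578086 to 10412498) were high. SostPB/- replicate 4 was low in rows above 0, at 14459 against 14735 to 14762. Pdk4 stood at 2300.1 CPM in SostPB/- replicate 2 against 366.7 to 679.9 in its group, the liver that was also the highest of its group in C9orf72 and Trp53inp1. Adamts12 was low in Sost-/- replicate 4, at 3.27 CPM against 9.47 to 9.99, and this liver was also the lowest of its group in Rragd, at 7.57 CPM. Cpq was low in Sost-/- replicate 3, at 52.6 CPM against 66 to 67.5. Ubap1 was low in Sost-/- replicate 2, at 249.7 CPM against 270.2 to 274.2. None of the members' own sets stood out.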

How the results depend on the processing

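Precision is limited by 4 livers per genotype, and the rarest member, Rragd, had as few as 86 counts in a library. DESeq2 called 53 rows, 4 of them readable and 1 of them a member, C9orf72 at -1.11 (adjusted p = 0.0316), where edgeR called 0, 0 and 0. Over all rows limma-voom called 1 and the fit without a filter 2. Leaving out each library gave 0 to 4 rows (4 without Sost-/- replicate 1), 0 to 1 readable rows (1 without SostPB/- replicate 3 and 1 without replicate 4) and 0 members each time. With library totals alone, which shift all log2 fold changes by a median of -0.19, Tmem106b was at -0.10, Rab2a, Cpq and Snx30 at -0.08 and Chmp5 at -0.14, and r of Laptm4b was -0.01 with C9orf72 and -0.09 with Trp53inp1. The shift comes from the scaling itself. Leaving out each library, log2 fold changes ran from -1.36 to -0.89 for C9orf72, -1.28 to -0.66 for Trp53inp1, -0.39 to -0.02 for Rragd, -0.11 to 0.02 for Stx17, -0.03 to 0.21 for Tmem106b and 0.14 to 0.23 for Laptm4b. Of the other pathway genes, Vcp ran from -0.12 to 0.11, Ubap1 from -0.07 to 0.03 and Chmp5 from -0.02 to 0.12. For r, C9orf72 with Trp53inp1 ran from 0.85 to 0.96, C9orf72 with Laptm4b from -0.97 to -0.68 and Trp53inp1 with Laptm4b from -0.91 to -0.60. The cause of these shifts was not tested. Same-numbered libraries did not deviate together (correlations of -0.09, -0.02, -0.06 and 0.06, and 1 of 4 was best with its own number), so the numbers were not taken to pair mice. With the replicate block C9orf72 was at -1.11, Trp53inp1 at -0.95, Rragd at -0.15, Stx17 at -0.05, Tmem106b at 0.10 and Laptm4b at 0.20, and 0 rows were called.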
